A study of Homo sapiens with 10 samples.

Results

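The 6 stimulus-inducible protein kinase genes followed here were the polo-like kinases PLK2 and PLK3, the PIM kinases PIM1, PIM2 and PIM3, and the serum- and glucocorticoid-regulated kinase SGK1. They were taken by symbol, matched through their Ensembl identifiers, and all 6 were present among the 20327 genes of every library. The cells were wild-type hTERT RPE-1, a telomerase-immortalised human line labelled as retinal pigment epithelium, and every group had been held for 48 h in medium with 0.1% serum. In the first experiment cells received the vehicle DMSO for 30 min or 200 µM merbarone, a catalytic inhibitor of topoisomerase II, for 30 min (3 libraries each). In the second, untreated cells were set against 200 µM merbarone for 2 h (2 libraries each), so that control had received no vehicle. All libraries came from 1 cell line, and the labels do not say whether replicates were separate cultures, so the p-values measure only the spread between these libraries.

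Polo-like kinases carry a kinase domain and a polo-box domain that docks them on primed substrates. PLK1 drives mitosis, whereas PLK2 and PLK3 are known as early-response genes of serum and stress. PIM kinases are active as made, without a phosphorylation switch, so their activity follows their amount, and cytokine signals through JAK and STAT proteins are a known route to their transcription. SGK1 is a relative of AKT that controls ion channels and survival factors. Its transcript is short-lived and known to be raised by serum, glucocorticoids and osmotic stress, while the protein needs phosphorylation by mTORC2 and PDPK1 to work.

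PLK3, PIM1 and SGK1, which rose at 2 h, and PIM2, which was not called, are shown by the 250 bases before their transcription start, taken from RefSeq on GRCh38.p14 and printed 5′ to 3′ on the gene's strand. Capitals mark every match to 1 of 9 motifs searched on both strands. The windows are chr1:44800127-44800376 (plus strand) for PLK3, chr6:37169902-37170151 (plus strand) for PIM1, chr6:134174867-134175116 (minus strand) for SGK1 and chrX:48919025-48919274 (minus strand) for PIM2. SGK1 has 3 starts in the table, and the one shown is the innermost. Which start the transcripts used was not measured.
PLK3: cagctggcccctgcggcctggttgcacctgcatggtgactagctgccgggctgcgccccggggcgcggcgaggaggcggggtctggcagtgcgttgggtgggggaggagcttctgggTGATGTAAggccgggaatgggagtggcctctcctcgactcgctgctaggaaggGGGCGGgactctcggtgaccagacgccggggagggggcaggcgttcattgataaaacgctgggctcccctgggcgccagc
PIM1: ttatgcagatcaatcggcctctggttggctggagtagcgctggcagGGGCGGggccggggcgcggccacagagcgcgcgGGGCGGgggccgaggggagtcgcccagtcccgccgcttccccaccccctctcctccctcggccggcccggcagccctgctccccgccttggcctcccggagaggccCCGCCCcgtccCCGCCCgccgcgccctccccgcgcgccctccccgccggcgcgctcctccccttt
SGK1: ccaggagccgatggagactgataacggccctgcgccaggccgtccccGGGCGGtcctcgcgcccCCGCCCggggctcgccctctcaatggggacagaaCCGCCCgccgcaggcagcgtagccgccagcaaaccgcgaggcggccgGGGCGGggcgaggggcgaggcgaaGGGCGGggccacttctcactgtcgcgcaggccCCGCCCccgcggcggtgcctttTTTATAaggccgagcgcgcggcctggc
PIM2: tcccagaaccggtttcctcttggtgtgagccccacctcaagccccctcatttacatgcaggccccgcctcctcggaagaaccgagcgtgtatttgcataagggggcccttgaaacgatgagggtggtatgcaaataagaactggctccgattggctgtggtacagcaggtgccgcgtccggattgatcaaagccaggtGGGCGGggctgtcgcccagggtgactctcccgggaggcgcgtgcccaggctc

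The letters searched were TATAAA for the core element of the TATA class, TGACGTCA for the cyclic AMP response element, TGANTCA for the AP-1 site and TTCNNNGAA for the STAT site. They were TGATGNAA for the composite site of C/EBP and ATF factors, GGGCGG for the GC box and ACANNNTGT for the core of a glucocorticoid receptor site, with the CArG box and the NF-kB site searched by their usual consensus. PLK3 held the composite site as TGATGTAA, 133 to 126 bases before the start, a motif found in 3.15% of 34943 RefSeq promoter windows of this length, and 1 GC box. PIM1 held 4 GC boxes and PIM2 held 1, and 42.5% of all windows held at least 1. The SGK1 window held 6 GC boxes and a TATA box on the other strand, 27 to 22 bases before the start, a motif in 10.8% of windows. The windows of the outer SGK1 starts 1 and 2, not printed, held no GC box and 1 TATA box each. These lay 96 to 91 bases (other strand) and 15 to 10 bases (given strand) before the start. The PLK2 and PIM3 windows, not printed, held 2 and 4 GC boxes. The remaining motifs were in 1.63% (cyclic AMP response element), 6.59% (AP-1), 6.56% (STAT), 4.62% (glucocorticoid receptor core), 1.16% (CArG) and 5.20% (NF-kB) of windows, and none of their letters was found in the windows of the 6 genes. A match is a description of these letters, not of binding.

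The deposited unit was RPKM, reads scaled by gene length and by library size, with the whole gene span as the length for most genes, so SGK1, whose span is 148865 bp against 9962 bp of exons, had low RPKM at a high number of reads. Whole reads were recovered from the values and summed to 11956652 to 38225538 per library. No replicate pair was identical. At a mean of at least 1 exon RPKM, that is with the recovered reads scaled by summed exon length instead, 5 of 5 mesenchymal, 2 of 5 epithelial (KRT8, KRT18) and 4 of 8 pigment epithelium markers (BEST1, PMEL, MITF, OTX2) were present, while RPE65, RLBP1, TYR and LRAT were not. Of the endothelial markers 0 of 3 in the tables reached that level, with CDH5 at 0. The summed endothelial markers were between 0.329 and 0.382 in untreated libraries and between 0.552 and 0.593 at 2 h, and the epithelial sum was between 113.6 and 130.5 against 130.8 and 142.2. The mesenchymal sum was between 1769 and 1788 against 2017 and 2091, with mean exon RPKM of 336 and 742 for FN1, 1321 and 1202 for VIM and 83.3 and 62.5 for THY1, so its members did not move one way. Their part in the 2 h results was not tested. In the 30 min experiment, libraries numbered 1 stood apart from the others of their group, with a correlation of 0.925 between their deviations from the group means. Without both, 0 members were called at 30 min, SGK1 was at 0.46 in voom, and PLK3 and PIM1 kept their calls for the difference between experiments (1.82 and 1.46). As in any bulk measurement, fewer cells expressing a gene and less RNA per cell cannot be told apart.

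Of the 6 kinases, PLK3, PIM1 and SGK1 rose after 2 h of merbarone, by 4.82-, 3.47- and 2.39-fold of mean RPKM, and none passed the test after 30 min. PLK3 and PIM1 were called by limma on log2(RPKM + 1) with Benjamini-Hochberg adjustment at 0.05, and SGK1, under the filter of a mean of 1 RPKM, by limma's voom on the recovered reads. PLK2, the most abundant of the 6, and PIM3 were higher at 2 h by less than the test could call, and PIM2 was 0.886-fold of untreated, also without passing. The 2 h libraries of 5 members lay above both untreated ones, where 22.5% of genes at a mean of 1 RPKM and 28.8% at a mean of 10 reads stood in that order. In that limma fit 2 of 5 members tested were called higher, and none lower, against 5.98% of 6620 genes called higher and 7.1% called lower, 13.1% in all. The voom fit called 3 of 6 higher, against 7.94% of 13440 genes called higher and 6.09% lower. Because the members were chosen with earlier results of these data known, these shares are a description and no test of the set.

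**Figure D1:**
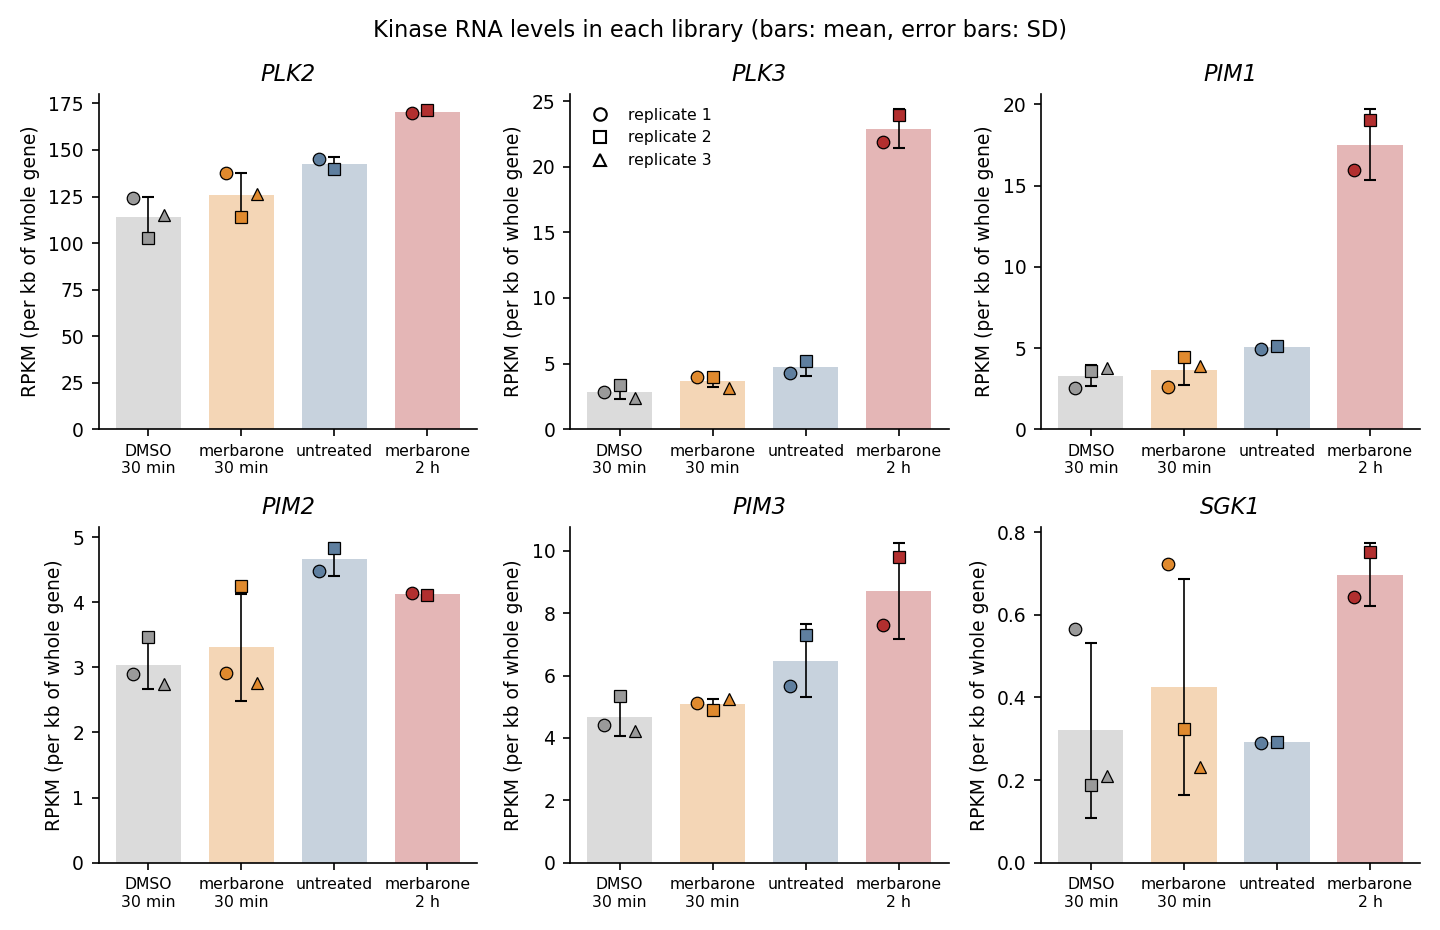
RPKM of each kinase in every library, with 1 panel per gene and its own axis starting at 0. Bars are group means with the SD as error bars, points are libraries, and marker shapes give the replicate number. At 2 h the libraries of PLK3 (21.9 and 23.9) and PIM1 (15.97 and 19.05) lie far above the untreated ones, while those of PIM2 do not.

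PLK2, which phosphorylates the centrosomal protein CENPJ among others (ENSG00000145632, GRCh37 chromosome 5, 57749809 to 57755966, minus strand), read 124, 103 and 115 RPKM in the DMSO libraries and 138, 114 and 126 at 30 min. These groups overlapped, although each merbarone library exceeded the DMSO library of its own number, by 1.11-, 1.11- and 1.10-fold. It read 145 and 140 in untreated cells and 170 and 171 at 2 h. The 2 h libraries lay above both untreated ones, at 10501 to 29111 reads per library over the series. The log2 fold change was 0.14 ± 0.10 (SE, 95% interval −0.11 to 0.40) at 30 min and 0.26 ± 0.11 (0.01 to 0.51) at 2 h, with adjusted p = 1.00 and 0.144 in limma. With a correction for GC content the 2 h value was 0.28 at adjusted p = 0.0365 in limma, so the call for PLK2 turned on such choices. Without untreated library 1, which leaves 1 library in that group, the value was 0.29.

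PLK3, an early-response kinase of stress and DNA damage signalling (ENSG00000173846, chromosome 1, 45266049 to 45271662, plus strand), read 2.83, 3.40 and 2.36 RPKM with DMSO and 3.997, 3.95 and 3.17 at 30 min. Only the lowest merbarone library fell below the highest DMSO library, and the pairs of equal number differed 1.41-, 1.16- and 1.34-fold. Its log2 fold change at 30 min was 0.29 ± 0.12 (SE), with an unadjusted p = 0.0494 and an adjusted p = 1.00 in limma. In the second experiment PLK3 read 4.28 and 5.22 in untreated cells and 21.9 and 23.9 at 2 h, from 329 to 360 reads against 1728 to 1800. The treated libraries were far above the untreated ones, with a log2 fold change of 2.06 ± 0.11 (SE, 95% interval 1.81 to 2.31) and an adjusted p = 1.54e-05 in limma, rank 10 of 6620 by size. PLK3 overlaps the end of DYNLT4 on the opposite strand (ENSG00000188396, chromosome 1, 45271565 to 45273023), whether counting used the strand is not stated, and DYNLT4 itself had 43 to 48 reads in untreated cells and 124 to 140 at 2 h. That is a log2 fold change of 1.17 ± 0.11 with adjusted p = 2.23e-04 in limma, at read numbers well under those of PLK3.

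**Figure D2:**
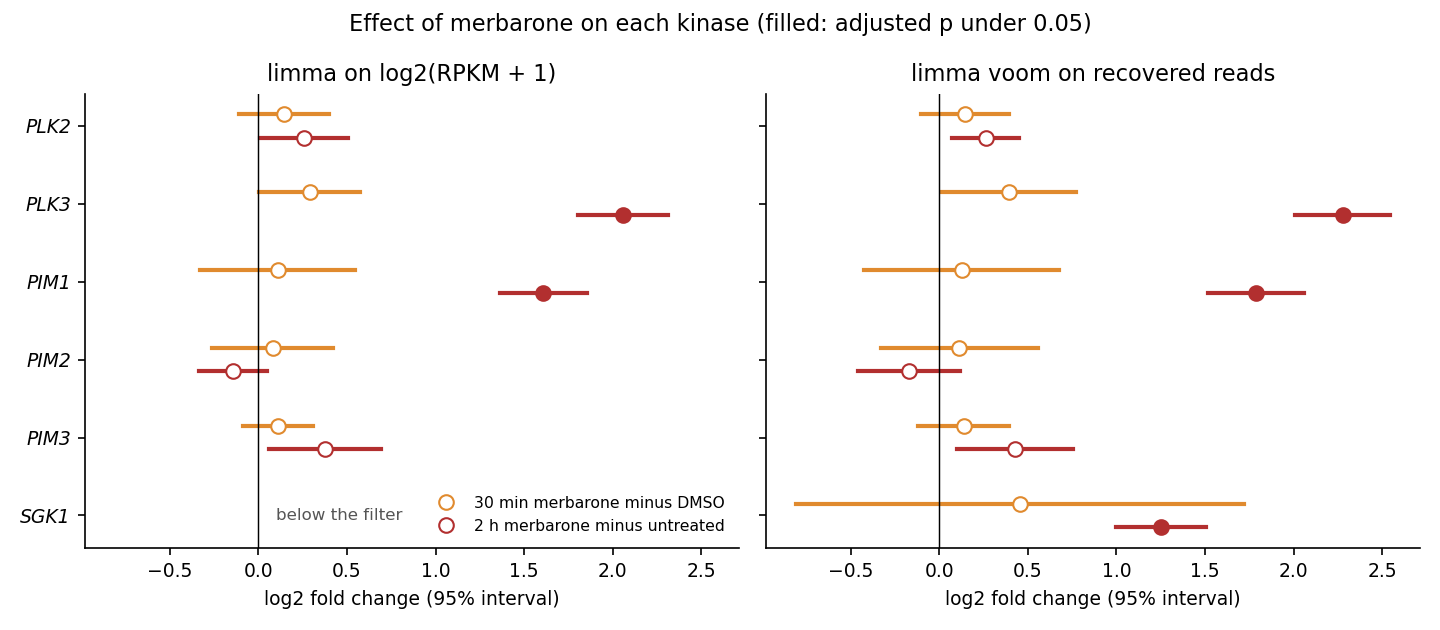
Log2 fold change of each kinase with its 95% interval, at 30 min (orange) and 2 h (red), from limma on log2(RPKM + 1) on the left and limma's voom on recovered reads on the right, with filled points past the threshold. The filled points are PLK3 and PIM1 at 2 h in both panels and SGK1 at 2 h in voom.

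PIM1, the best known of the PIM kinases (ENSG00000137193, chromosome 6, 37137928 to 37143204, plus strand), read 2.55, 3.57 and 3.77 RPKM with DMSO and 2.62, 4.46 and 3.92 at 30 min. The groups overlapped and the library numbered 1 was the lowest in both. In untreated cells it read 4.95 and 5.14, and at 2 h 15.97 and 19.05, or 321 to 345 reads against 1143 to 1298. Both treated libraries lay above the untreated ones by more than the spread within either group. The log2 fold change was 0.11 ± 0.18 (−0.33 to 0.55) at 30 min, with adjusted p = 1.00, and 1.61 ± 0.11 (1.37 to 1.85) at 2 h, with adjusted p = 3.71e-05, both in limma, and ranked 22 of 6620 at 2 h. Without the filter on low RPKM the adjusted p at 2 h was 0.0502.

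PIM2 (ENSG00000102096, X chromosome, 48770459 to 48776301, minus strand), a kinase whose substrates overlap those of PIM1, was not called. It read 2.90, 3.46 and 2.75 RPKM with DMSO, 2.91, 4.26 and 2.75 at 30 min, 4.48 and 4.84 in untreated cells and 4.15 and 4.11 at 2 h. The 2 h libraries were below both untreated ones, where 39% of genes stood in that order, and the log2 fold change of −0.14 ± 0.08 (−0.33 to 0.05) did not pass limma's test (adjusted p = 0.286). PIM3 (ENSG00000198355, chromosome 22, 50354416 to 50357720, plus strand), the remaining PIM kinase, read 4.42, 5.33 and 4.24 with DMSO, 5.13, 4.90 and 5.24 at 30 min, 5.66 and 7.31 in untreated cells and 7.61 and 9.80 at 2 h. Its 2 h libraries lay above the untreated ones, but by little against their spread. The 2 h log2 fold change was 0.37 ± 0.14 (0.06 to 0.69) with adjusted p = 0.109 in limma, and PIM3 was called under GC correction (0.50, adjusted p = 0.00292). The change was 0.53 without untreated library 2 and 0.54 without 2 h library 1, fits that leave 1 library in a group.

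SGK1 (ENSG00000118515, chromosome 6, 134490386 to 134639250, minus strand) read 0.565, 0.188 and 0.209 RPKM with DMSO, from 2241, 859 and 1189 reads. At 30 min it read 0.724, 0.323 and 0.231, from 3627, 1800 and 1204 reads. The groups overlapped widely, since the library numbered 1 was the highest in both. It read 0.291 and 0.293 in untreated cells and 0.643 and 0.751 at 2 h, from 577, 521, 1311 and 1459 reads, so both treated libraries lay above the untreated ones. In voom the log2 fold change was 0.45 ± 0.53 (−0.81 to 1.72) at 30 min, with an adjusted p close to 1, and 1.25 ± 0.12 (1.00 to 1.50) at 2 h, with adjusted p = 3.50e-07 and rank 192 of 13440. On log2(RPKM + 1) with no filter the 2 h change was 0.39 with adjusted p = 0.0880 in limma, a scale on which so low a value is understated. Leaving out each library in turn, which leaves 1 library in a group, gave 1.14 to 1.36 for SGK1 at 2 h in voom.

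At 30 min the members stood higher in pairs without passing the test. Each of PLK2, PLK3, PIM1, PIM2 and SGK1 was higher with merbarone in all 3 equal-numbered pairs, while PIM3 was not. The ratios were 1.03- to 1.25-fold for PIM1 and 1.10- to 1.72-fold for SGK1. PIM2 was all but equal in pairs 1 and 3 (1.003- and 1.002-fold) and 1.23-fold in pair 2. Of all genes at a mean of 1 RPKM, 8.72% were higher in all 3 pairs, and 11.7% at a mean of 10 reads. The 30 min groups overlapped for all 6 members, and 2.28% of genes had groups that did not. limma called 1 of 6500 genes (0.0154%) at 30 min, and 24 at an unadjusted p under 0.05, of which PLK3 was 1. voom called 1 of 14012 genes (0.00714%). With replicate numbers entered as blocks, limma called 8 genes (0.123%), and 0 of the 5 members tested. At an unadjusted p under 0.05 that fit had 208 genes. Without blocks, differences between replicate numbers count as spread, so a member not called at 30 min is not shown to be unchanged.

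The change at 2 h exceeded the change at 30 min for PLK3 and PIM1. The difference of log2 fold changes was 1.77 ± 0.18 (SE) for PLK3, with adjusted p = 0.00160, and 1.50 ± 0.25 for PIM1, with adjusted p = 0.0222 in limma over all 10 libraries, against 1.63% of 6558 genes called and 1.27% called higher. It was 0.26 ± 0.18 for PIM3, 0.12 ± 0.15 for PLK2 and −0.22 ± 0.19 for PIM2, none of them called. For PIM1 the call was lost in voom (adjusted p = 0.0820), which called 0.475% of genes, and without DMSO library 3 (0.0524), untreated library 1 (0.0693) or 2 (0.0953), or 2 h library 1 (0.0736) or 2 (0.128). SGK1's difference in voom was 0.80 ± 0.76, with adjusted p = 0.753, and with replicate numbers as blocks in voom it was called, at 0.83 with adjusted p = 0.00373. That fit called 2094 of 13900 genes. PIM3's difference was called with GC correction and blocks together (0.36, adjusted p = 0.0135 in limma), a fit that called 1728 of 6435 genes. Time, vehicle and experiment differ together in this contrast and cannot be told apart.

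The controls themselves differed. Untreated libraries lay above all DMSO libraries for PLK2, PLK3, PIM1, PIM2 and PIM3, with folds of the means between 1.25 and 1.66, where 37.6% of 6544 genes stood in that order. SGK1 did not, with 0.910-fold and overlapping groups. Marker sums in exon RPKM also differed between DMSO and untreated libraries. The epithelial sum was 32.8 to 41.7 against 113.6 to 130.5, and the pigment epithelium sum 40.5 to 46.8 against 82.6 to 83.2. The mesenchymal sum was 2106 to 2815 against 1769 to 1788, and the endothelial sum 0.221 to 0.310 against 0.329 to 0.382. By gene, with DMSO and untreated, mean exon RPKM was 4.67 and 33.9 for BEST1, 21.5 and 25.5 for PMEL, 9.30 and 12.9 for OTX2 and 7.16 and 10.1 for MITF. FN1 (866 and 336), VIM (1595 and 1321) and CDH2 (36.4 and 29.7) were lower untreated. THY1 (68.5 and 83.3) and COL1A1 (3.54 and 7.91) were higher, so the mesenchymal markers did not move one way. No test was made, because experiment, vehicle and time cannot be told apart.

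**Figure D3:**
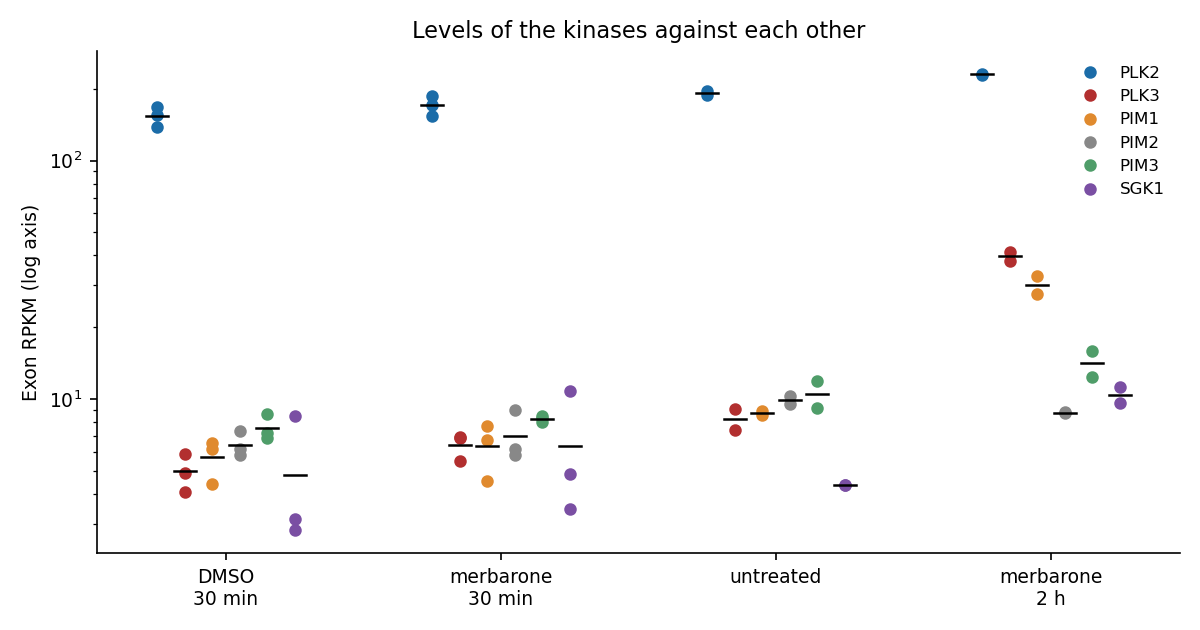
Level of each kinase in exon RPKM (reads scaled by summed exon length and library size) in the 4 groups, on a log axis, with points for libraries and black lines for group means. PLK2 stands at 154 with DMSO and 231 at 2 h, above every other kinase in each group, and PLK3 stands at 8.24 in untreated cells and 39.7 at 2 h.

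Compared per exon length, PLK2 was the most abundant in every group, at 154 ± 14.6 exon RPKM (SD, n = 3) with DMSO, 170 ± 15.996 at 30 min, 192 ± 4.89 (n = 2) in untreated cells and 231 ± 1.49 at 2 h. The other 5 lay between 4.79 and 7.57 with DMSO and between 6.32 and 8.27 at 30 min, and each overlapped its neighbour in the order. In untreated cells the order was PIM3 10.5, PIM2 9.86, PIM1 8.70, PLK3 8.24 and SGK1 4.36, with ranges of PIM3 and PIM2 overlapping, and those of PIM1 and PLK3. At 2 h it was PLK3 39.7 ± 2.52, PIM1 30.2 ± 3.75, PIM3 14.1 ± 2.51, SGK1 10.4 ± 1.15 and PIM2 8.74 ± 0.0623, and no neighbouring ranges of the 2 libraries overlapped. Per exon length PIM2 was thus the lowest of the 6 at 2 h, and SGK1 in untreated cells. The place of SGK1 depends on its summed exon length of 9962 bp, against 2198 to 4647 bp for the other members. In untreated libraries SGK1 had 521 to 577 reads, above PLK3, PIM1, PIM2 and PIM3 (269 to 360) and below PLK2 (10501 to 12129). Which SGK1 exons the transcripts held was not measured, so its place in these orders is uncertain.

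The genes whose pattern over the 10 libraries was nearest to a called member were taken by the root mean square difference of log2(RPKM + 1) from the controls, among 6167 genes. Nearest to PLK3 were BHLHE40, a transcriptional repressor (0.151), KLF2, a zinc finger factor (0.176), and DDIT3, the stress factor CHOP (0.191), with 2 h log2 fold changes of 1.93, 2.38 and 1.98 in limma. DDIT3 overlaps other genes and is uncertain. Nearest to PIM1 were PMAIP1, a BH3-only death protein (0.159), ETS2, a transcription factor (0.159), and NFKBIA, the NF-kB inhibitor (0.163), at 1.31, 1.57 and 1.52. PLK3 and PIM1 were 0.320 apart.

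Of the relatives, AKT kinases included, 4 of 8 were tested at 2 h and PLK1, the mitotic kinase, was lower (−0.46 ± 0.09, adjusted p = 0.0133 in limma), with a list median of −0.19 against −0.05 for all genes. The call for PLK1 was lost in limma without 2 h library 1 (adjusted p = 0.153) or 2 (0.0767), with no filter (0.0840) and with all 10 libraries in 1 fit (0.411). PLK1 overlaps another gene and is uncertain. PLK4, which builds centrioles, was at −0.08 (adjusted p = 0.602 in limma), and SGK3 at −0.36 (adjusted p = 0.0804 in voom). The JAK-STAT genes had 1 of 6 tested called higher, SOCS3, the feedback inhibitor (0.71, adjusted p = 0.00398 in limma), with a median of 0.16, and voom called OSMR as well (0.37), making 2 of 13. Of the SGK1 activators and substrates 1 of 10 passed the filter and was not called in limma, with 0 at an unadjusted p under 0.05, and voom called 1 of 10, MAPKAP1, a subunit of mTORC2, lower (−0.37).

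Glucocorticoid receptors and their targets had 3 of 4 tested called higher at 2 h in limma and a median of 0.85: DUSP1, a MAP kinase phosphatase (1.91), TSC22D3, known as GILZ (1.04), and PER1, a clock repressor (0.66). voom called 4 of 8, with NR3C2 added (0.43), and the receptor NR3C1 was at 0.05 (adjusted p = 0.825). Among the targets not called, mean RPKM in untreated cells and at 2 h was 0.364 and 0.330 for FKBP5 and 1.13 and 1.06 for KLF9. It was 0.642 and 1.25 for CEBPD, and ZBTB16 had 0 reads in both groups, so the list did not move one way. TSC22D3 and PER1 overlap other genes. Some of these genes are also known to answer to serum and stress, and no glucocorticoid was a treatment here. What raised the called genes was not tested.

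**Figure D4:**
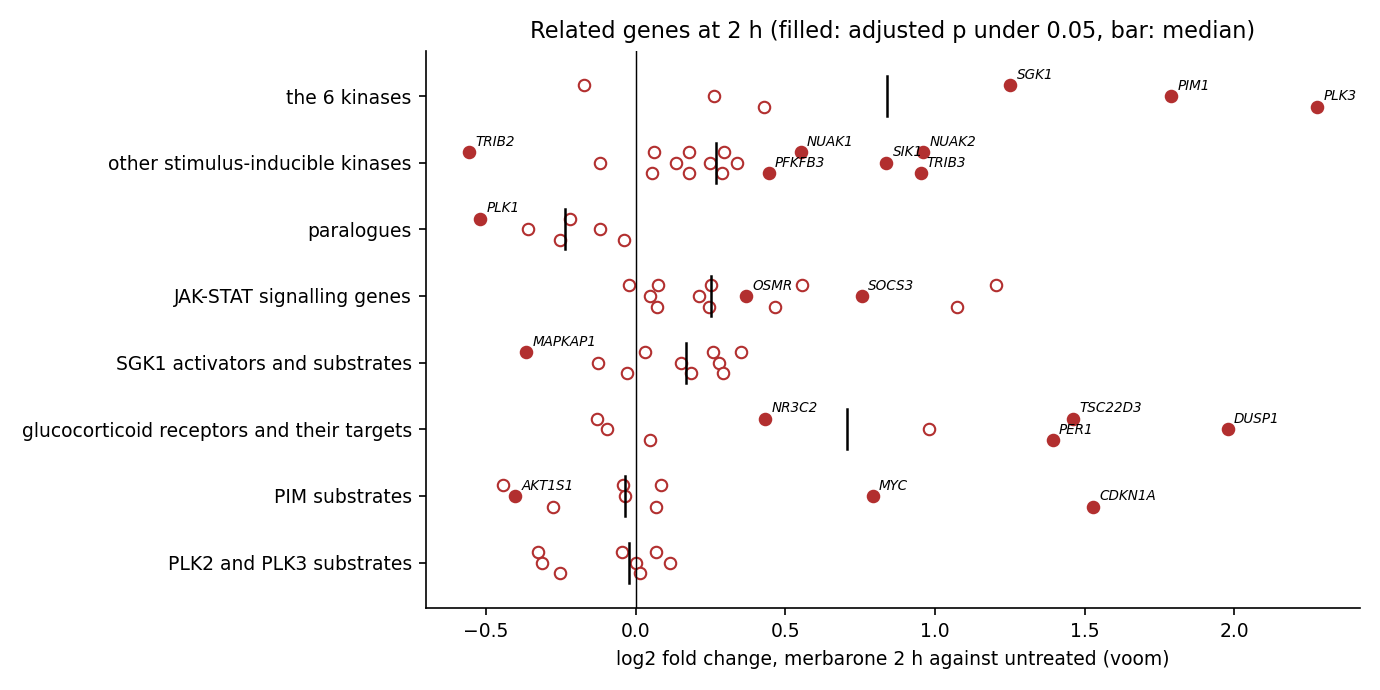
Log2 fold change at 2 h of the tested genes of each list, from limma's voom on recovered reads, with 1 point per gene, filled points past the threshold and black lines at list medians. In voom the glucocorticoid list has a median of 0.71, the 6 kinases 0.84, and the other lists lie between −0.24 and 0.27.

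PIM substrates had 6 of 10 tested, of which CDKN1A, the cell-cycle inhibitor p21 (1.50, adjusted p = 3.85e-04), and MYC, the growth transcription factor (0.76, adjusted p = 0.00454), were higher and AKT1S1, an mTORC1 inhibitor, was lower (−0.37, adjusted p = 0.0393) in limma, with a median of −0.03. The call for AKT1S1 was lost in limma without 2 h library 1 (adjusted p = 0.336) or 2 (0.242), with no filter (0.121), with quantile scaling (0.0743) and in 1 fit of all libraries (0.0569), and it overlaps other genes. Of the PLK2 and PLK3 substrates limma tested 3 of 8 and called 0, with 1 at an unadjusted p under 0.05, and voom tested 8 and called 0, with 3 at that level. Other stimulus-inducible kinases had 2 of 10 tested called higher, SIK1, a CREB-regulated kinase (0.81), and TRIB3, a pseudokinase of the stress response (0.61), with a median of 0.17. In voom 5 of 16 were higher, among them NUAK2 (0.96) and NUAK1 (0.55), and 1 lower, TRIB2 (−0.56). The median of the members tested was 0.37 in limma and 0.84 in voom, against −0.05 and 0.00 for all genes. At 30 min 0 of 34 tested genes of these lists passed in limma and 0 of 69 in voom, and in both DUSP1 was the 1 gene at an unadjusted p under 0.05. DUSP1 read 14.5, 5.83 and 4.69 RPKM with DMSO and 32.5, 21.8 and 16.3 at 30 min, higher in all 3 equal-numbered pairs and without overlap. With replicate numbers as blocks it was called at 30 min in limma (1.49, adjusted p = 0.0188), in limma with GC correction (1.50, 0.0115) and in voom (1.58, 9.67e-04).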

How the data were processed

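RNA-seq libraries of 10 samples were analysed. The authors deposited 1 RPKM table per library, per the file headers. The submitters' processing notes name Bowtie 1.2.0, DESeq2, edgeR, deepTools 2.4.1 and hg19/GRCh37 without roles. Per the labels' protocols, libraries were made from 150 ng of RNA with a stranded mRNA kit. Symbols were matched for 19174 genes, and 1153 kept an identifier only. For 74.9% of 17234 genes the length behind the RPKM was within 1% of the gene span in a GRCh37 annotation. Whole reads were recovered for 100% of 17680 genes (tolerance 0.001 of a read).

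limma 3.58.1 in R 4.3.3 was fitted to log2(RPKM + 1) by lmFit and eBayes with trend, a mean of at least 1 RPKM, two-sided, Benjamini-Hochberg adjusted at 0.05, within each experiment. The difference used all 10 libraries. A pseudocount above 0 understates low genes. voom used genes with a mean of at least 10 recovered reads. Reads were recovered with NumPy 2.4.6, tables were joined with pandas 2.3.3, and plots were drawn with matplotlib 3.10.9, all in Python 3.11.15. SciPy 1.17.1 gave the rank correlation of log2 fold change in limma with GC content. It was −0.421 over 6380 genes at 30 min and −0.173 over 6496 genes at 2 h. The tests were tried on simulated reads with large planted changes and no differences between replicate numbers. That trial does not cover the spread of these replicates or smaller changes.

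Same-numbered 30 min libraries deviated together (correlations 0.925, 0.646 and 0.605 over 6500 genes), the numbers coming from the labels. The 2 pairs at 2 h gave 0.300, which does not show a pairing. Named were the 6 members, each list's called genes (up to 5), PLK1, PLK4, SGK3, NR3C1 and the 3 genes most alike each called member. The glucocorticoid targets not called were named after seeing the data. The result of 1 marker list is not reported here. Members and lists were chosen with earlier results of these data known. Alternatives were a pseudocount of 0.1, no filter, a mean of 5 RPKM, median and quantile scaling, no trend, the block, 1 fit, voom, GC correction and leaving out each library. Without an untreated or 2 h library that group has 1 library and no spread of its own, so calls kept or lost there are weak evidence. Leaving out both 30 min libraries numbered 1, and voom leaving out each library for SGK1, were chosen after seeing the data.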

Additional observations from a re-analysis of the deposited data

Results flagged for a closer look

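The effect of merbarone differed between 30 min and 2 h by limma's test of the difference over 10 libraries, Benjamini-Hochberg adjusted, for 5 of the genes named. On the log2 scale the 2 h effect exceeded the 30 min effect by 1.77 for PLK3, 1.50 for PIM1, 1.40 for CDKN1A, 1.01 for TSC22D3 and 0.67 for TRIB3. The adjusted p-values in limma were 0.00160, 0.0222, 0.0112, 0.00171 and 0.0179. The call was lost in limma for CDKN1A without untreated library 1 (adjusted p = 0.0514) or 2 (0.0589), and for TRIB3 without merbarone 30 min library 2 (0.0511) or 2 h library 2 (0.108). For PIM1 it was lost in voom (0.0820) and in 5 of 10 fits that left out 1 library (up to 0.128). The time, control and experiment cannot be told apart in these values.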

How the results depend on the processing

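No member was called at 30 min in any of 19 alternatives. At 2 h, 2 members were called in limma, against 1 with no filter (53 of 16810 genes called). With GC correction 4 were called (1759 of 6496), with GC correction and replicate block 4 (1982 of 6496) and with voom and replicate block 5 (3438 of 13440). When each library was left out, the 2 h changes in limma were 1.94 to 2.18 for PLK3 and 1.49 to 1.73 for PIM1. The fits that called 4 or 5 members also called a larger share of all genes than the 866 of 6620 in limma. The replicate block alone called PIM3 at 2 h (0.37, adjusted p = 5.48e-04 in limma), in a fit that called 2129 of 6620 genes. For the difference 2 were called in limma (107 of 6558 genes called), against 1 in voom (66 of 13900). With replicate block in voom 3 were called (SGK1 added, 2094 of 13900), and with GC correction and replicate block 3 (PIM3 added, 1728 of 6435). PLK3's difference was called in each of 12 alternatives other than leaving out 1 library (adjusted p 3.91e-07 to 0.00905 in limma or voom). PIM1's adjusted p there ranged from 2.45e-06 to 0.0820. With 1 library left out the differences were 1.65 to 1.89 for PLK3 and 1.33 to 1.63 for PIM1, and PIM1's call was not kept in all of these fits. Leaving out each library in turn turned the sign of uncalled 30 min changes, from −0.022 to 0.28 for PIM1, −0.071 to 0.17 for PIM2, −0.0054 to 0.92 for SGK1 (voom), −0.078 to 0.30 for MYC, −0.31 to 0.27 for PLK1, −0.13 to 0.17 for SIK1 and −0.10 to 0.32 for SOCS3, and of DUSP1's difference, from −0.017 to 0.71. The cause was not tested. Counts over all genes ran from 0 to 13 at 30 min, 53 to 4123 at 2 h and 5 to 2094 for the difference (107 in limma), the 4123 and the 5 both in voom without untreated library 1. GC correction moved the 2 h split from 396 higher and 470 lower to 993 and 766, and the share called higher in the difference, 77.6%, was 88.6% with quantile scaling, 92.4% in voom and 40.2% with the replicate block. With no filter the 2 h calls of CDKN1A, DUSP1, MYC, PER1, SIK1, SOCS3 and TRIB3 were lost (adjusted p 0.0622 to 0.122 in limma), and in 1 fit of all libraries those of MYC (0.0749) and SOCS3 (0.115). Members had at least 269 reads per library, and groups held 2 or 3 libraries.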
